A study of Homo sapiens with 5 samples.

Results

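In RPE-1 cells after FAM53C knock-down, 9 genes of the cell cycle engine were followed, namely the E cyclins *CCNE1* and *CCNE2*, the A and B cyclins *CCNA2*, *CCNB1* and *CCNB2*, the kinases *CDK1* and *CDK2*, and the phosphatases *CDC25A* and *CDC25B*. They were chosen by name, 9 of the 64252 gene identifiers in the count table, and each of the 9 was among the 15341 genes with enough counts to be tested. RPE-1 is an immortalized line derived from human retinal pigment epithelium. The siCtrl group held 3 libraries of wild-type RPE-1 cells given ON-TARGET Control #1, a non-targeting siRNA, and the siFAM53C group held 2 libraries of the same line given ON-TARGETplus siRNAs against *FAM53C*. Both groups received 5 µM siRNA by lipid transfection and were collected 48 hr later, and because the *FAM53C* siRNAs were used as a pool, no value belongs to a single siRNA. The deposited table gave raw counts per gene from sequenced polyA RNA, and the comparison asks how the transcripts of these cyclins and kinases differ 48 hr into the knock-down.

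Progression through the cell cycle is driven by cyclin-dependent kinases, which are inactive until a cyclin binds them. Cyclin E, and then cyclin A, activates CDK2 at the entry into S phase and during DNA replication, while cyclin A and cyclin B activate CDK1 on the way into mitosis. CDC25 phosphatases remove inhibitory phosphates from both kinases. Most of the cyclin transcripts rise and fall in each cycle, the E cyclins around the G1/S transition under E2F factors, and the A and B cyclins later, in S and G2/M, so in a mixed culture their levels also depend on how many cells are in each phase.

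Libraries held 19260124 to 25615415 counts on genes. The targeted gene served as the check of the labels. *FAM53C*, which has 704 exon bases in common with opposite-strand genes, stood at 60.9, 59.7 and 57.6 CPM (counts divided by the TMM-scaled library size, a unit that corrects for depth) in siCtrl and at 14.2 and 22.3 CPM in siFAM53C, a log2 difference of -1.71 (SE 0.19, adjusted p = 0.003625, edgeR's quasi-likelihood test, Benjamini-Hochberg adjusted). Markers of mature pigment epithelium were scarce, with *RPE65* at 0 and *RLBP1* and *TYR* at or near 0 in all 5 libraries, whereas *MITF* (34.0 to 48.8 CPM), *OTX2* (13.5 to 17.1 CPM), *KRT8* (236 to 328 CPM) and *VIM* (3226 to 4146 CPM) were present. The epithelial markers *CDH1* and *EPCAM* did not exceed 0.170 CPM, and of the blood markers *CD3E* and *HBB* were at 0 while *PTPRC* had 2 to 20 counts per library, at most 1.05 CPM. The libraries also split along an axis other than the siRNA. After the mean of each condition was removed, siCtrl replicates 1 and 2 and siFAM53C replicate 1 lay on one side of the leading principal component (side A), and siCtrl replicate 3 and siFAM53C replicate 2 lay on the other (side B). Side B held the libraries whose column names in the deposited table carry the number 3, and side A those with the numbers 1 and 2. What that number shares, and so what separates the sides, is not given in the labels. Differences are therefore also given within the sides and from a fit that adjusts for side. That choice was made with these data in view. Because the side was read from the same counts, p-values adjusted for side can be too small.

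None of the 9 genes passed an adjusted p of 0.05 between siFAM53C and siCtrl in either direction (edgeR's quasi-likelihood test, Benjamini-Hochberg adjusted over the 15341 genes). Of all genes tested, 3.47% were called lower and 0.489% higher in siFAM53C. At an unadjusted p under 0.05, 0 of the 9 were lower and 1 was higher, which was *CDK2*, beside 1607 lower and 1014 higher of the 15341. DESeq2 and limma-voom likewise called 0 of the 9 at an adjusted p of 0.05. Fitted differences lay below 0 for 8 of the 9 genes and for 7391 of the 15341. The median was -0.16 on the log2 scale for the 9 beside 0.02 over all genes tested. The intervals differed in width, from 0.05 to 0.53 for *CDK2* to -0.84 to 0.37 for *CCNE1*, so the amount of change that the 5 libraries could show differed among the genes. No label states that the libraries of a condition came from separate cultures, and the p-values then measure only the spread between these libraries.

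**Figure D1:**
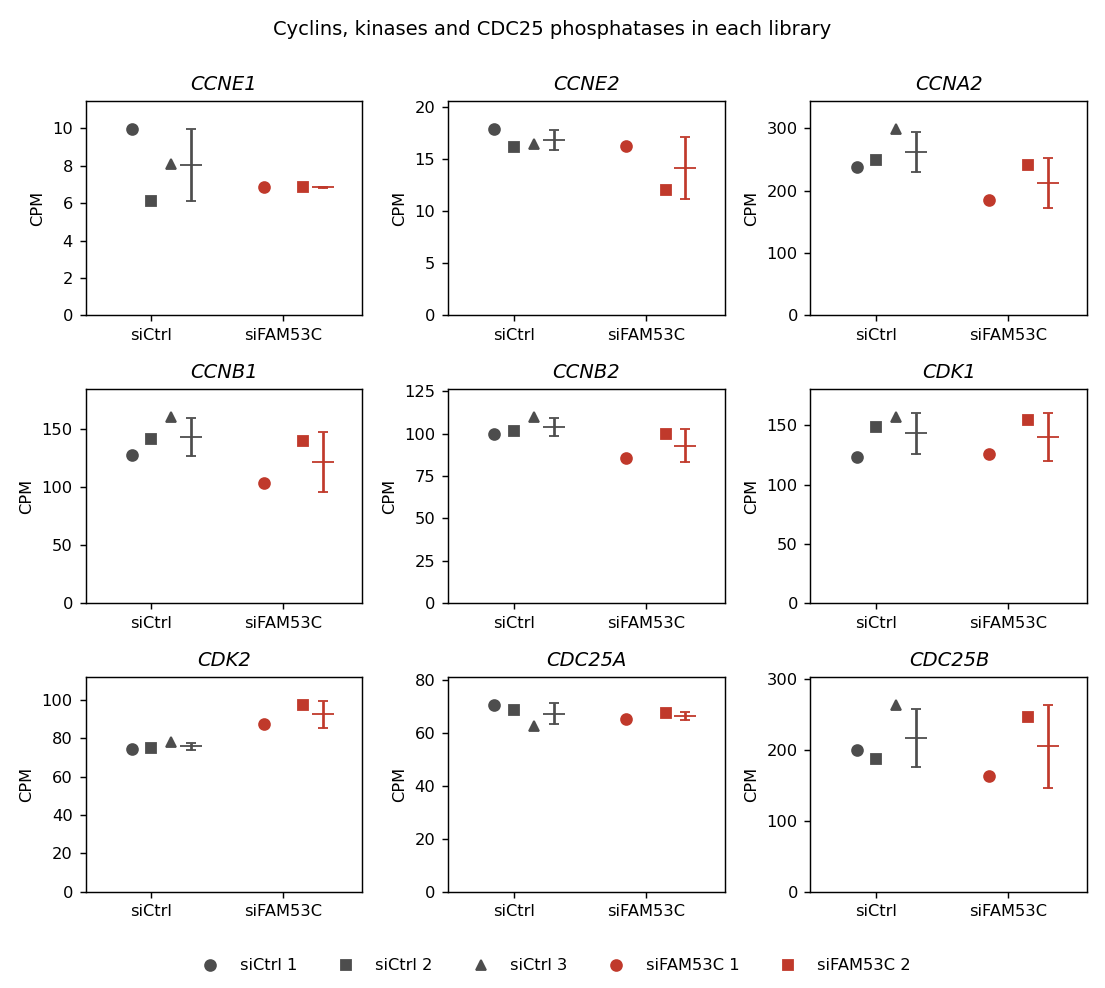
CPM of each of the 9 genes in each of the 5 libraries, with every vertical axis starting at 0. Points are libraries (siCtrl grey, siFAM53C red) and the bars beside them are the mean and SD (n = 3 and n = 2). The conditions do not overlap for CDK2, which is higher in both siFAM53C libraries, and for CCNB2, which is lower by a narrow margin.

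Per kilobase of annotated exon, cyclin A2 led and the E cyclins were the scarcest. The length used was that of all annotated exons of a gene joined, not of the transcripts expressed. The order between genes therefore also depends on the annotation. In siCtrl, *CCNA2* stood at 95.3 ± 11.8 CPM per kb (SD, n = 3), above *CCNB1* at 58.8 ± 6.73 and *CDC25B* at 55.4 ± 10.5, whose ranges overlapped. *CCNB2* at 37.7 ± 1.93 and *CDK1* at 36.7 ± 4.49 CPM per kb came next and also overlapped. *CDK2* (19.5 ± 0.520) and *CDC25A* (16.2 ± 0.974) were each apart from their neighbours in the order. *CCNE2* (3.82 ± 0.212) and *CCNE1* (3.27 ± 0.783) closed the list with overlapping ranges. In siFAM53C the same neighbours overlapped, and the order differed only by exchanges within 2 of those pairs, with *CDC25B* (52.4 CPM per kb) above *CCNB1* (50.1) and *CDK1* (35.9) above *CCNB2* (33.7).

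The E cyclins carry CDK2 across the G1/S transition. *CCNE1* (ENSG00000105173, GRCh38 chromosome 19, 29811991 to 29824312, plus strand) had 235, 117 and 154 counts in siCtrl and 181 and 162 in siFAM53C. In CPM these were 9.98, 6.12 and 8.07 against 6.84 and 6.88. Both siFAM53C values fell inside the siCtrl range, and the siCtrl libraries themselves varied by 23.9% (coefficient of variation), where counting error alone gives 6.52% to 9.25%. The fitted difference was -0.23 on the log2 scale (SE 0.26, adjusted p = 0.728, edgeR's quasi-likelihood test, Benjamini-Hochberg adjusted), and it was -0.19 within side A and -0.23 within side B.

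*CCNE2* (ENSG00000175305, GRCh38 chromosome 8, 94879770 to 94896678, minus strand) encodes the second E cyclin. Its counts were 421, 308 and 314 in siCtrl and 430 and 284 in siFAM53C, or 17.9, 16.1 and 16.5 CPM against 16.3 and 12.1 CPM. Only siFAM53C replicate 2 lay below the siCtrl range. The fitted difference was -0.25 (SE 0.18, 95% interval -0.67 to 0.17, adjusted p = 0.563, edgeR's quasi-likelihood test, Benjamini-Hochberg adjusted), and by side it was -0.06 (A) and -0.45 (B). Opposite-strand genes overlap 1633 of its 4397 exon bases (37.1%), among them *INTS8*, which stood at 42.1 to 56.9 CPM. Per the study's methods, reads were aligned as reverse-stranded, while the strand setting of the counting is not given in the sources used here. If strand was not used there, reads from these bases cannot be told apart.

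Cyclin A2 pairs with CDK2 in S phase and with CDK1 in G2. *CCNA2* (ENSG00000145386, GRCh38 chromosome 4, 121816444 to 121823883, minus strand) stood at 238, 249 and 299 CPM in siCtrl and 184 and 240 CPM in siFAM53C. The lower siFAM53C value was below every control, and the higher one lay within the control range. The difference was -0.30 on the log2 scale (SE 0.16, 95% interval -0.67 to 0.06, adjusted p = 0.381, edgeR's quasi-likelihood test, Benjamini-Hochberg adjusted). Without 1 library it ranged from -0.51 (without siFAM53C replicate 2) to -0.13 (without siFAM53C replicate 1). Adjusted for side it was -0.37 and passed the threshold (adjusted p = 0.003901 in edgeR's quasi-likelihood test, Benjamini-Hochberg adjusted), and within the sides it was -0.40 and -0.32. *EXOSC9* on the opposite strand, which overlaps 254 of its exon bases (9.24%), stood at 57.7 to 81.6 CPM.

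*CCNB1* (ENSG00000134057, GRCh38 chromosome 5, 69167135 to 69178245, plus strand) encodes the main mitotic cyclin. It had 3010, 2698 and 3061 counts in siCtrl and 2743 and 3298 in siFAM53C, which are 128, 141 and 160 CPM against 104 and 140 CPM. The pattern was that of *CCNA2*, with siFAM53C replicate 1 below every control and replicate 2 within the control range. The difference was -0.23 (SE 0.16, 95% interval -0.60 to 0.14, adjusted p = 0.527) with the condition only, and -0.30 when adjusted for side (adjusted p = 0.0238, edgeR's quasi-likelihood test, Benjamini-Hochberg adjusted in both fits). Within the sides it was -0.37 (A) and -0.20 (B).

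*CCNB2* (ENSG00000157456, GRCh38 chromosome 15, 59105126 to 59125045, plus strand), the other B cyclin, stood at 99.9, 102 and 110 CPM in siCtrl and 85.9 and 99.6 CPM in siFAM53C. Both siFAM53C libraries were below all controls, although the nearest values were less than 1 CPM apart. The difference was -0.16 (SE 0.11, adjusted p = 0.530, edgeR's quasi-likelihood test, Benjamini-Hochberg adjusted), and -0.19 when adjusted for side (adjusted p = 0.125, same test). *CCNB2* was the 1 gene of the 9 with every siFAM53C library below every siCtrl library, a pattern shown by 18.8% of all genes tested, and *CDK2* was the 1 gene with the reverse pattern, shown by 16.7%.

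The sequences just upstream of the starts of these cyclins, *CDK1* and *CDC25A* are shown because the proximal promoter is where CCAAT boxes, bound by NF-Y, the cell cycle genes homology region (CHR), bound by the DREAM and MuvB complexes, and E2F sites tie such genes to the cell cycle. They are from RefSeq on GRCh38.p14, are read 5′ to 3′ on the strand of the gene, and stop before the first annotated exon. Capitals mark the letters CCAAT for a CCAAT box, the letters TTTGAA, with the variant TTCGAA, for the CHR, and TTTCGCGC, TTTGGCGC, TTTCCCGC or TTTGCCGC for an E2F site, on either strand, so that a CCAAT box on the opposite strand reads ATTGG. The marked motifs do not overlap each other in the stretches shown.
CCNA2 (chr4:121823884-121824013, minus strand): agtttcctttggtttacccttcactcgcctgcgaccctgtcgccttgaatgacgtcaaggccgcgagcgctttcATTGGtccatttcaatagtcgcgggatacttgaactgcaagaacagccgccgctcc
CCNB1 (chr5:69167020-69167134, plus strand): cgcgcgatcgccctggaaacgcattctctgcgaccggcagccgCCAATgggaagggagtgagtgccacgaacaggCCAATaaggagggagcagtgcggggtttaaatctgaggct
CCNB2 (chr15:59105016-59105125, plus strand): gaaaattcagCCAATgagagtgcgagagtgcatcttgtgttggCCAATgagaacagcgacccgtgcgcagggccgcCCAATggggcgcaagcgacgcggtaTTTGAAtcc
CDK1 (chr10:60778161-60778330, plus strand): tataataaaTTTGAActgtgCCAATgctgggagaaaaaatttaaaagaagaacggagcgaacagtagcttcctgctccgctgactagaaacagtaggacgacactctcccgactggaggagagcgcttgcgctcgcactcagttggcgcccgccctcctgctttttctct
CDC25A (chr3:48188418-48188547, minus strand): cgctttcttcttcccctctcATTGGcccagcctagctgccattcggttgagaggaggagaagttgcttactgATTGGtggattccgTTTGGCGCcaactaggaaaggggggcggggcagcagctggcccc

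Windows of 250 bases before to 50 after a start were listed for 7 of the 9 genes. CCAAT was found in windows of 6 of them, the CHR letters in 3 and the E2F letters in 2. A gene was counted when any of its windows holds the letters. Of all 35116 windows, 34.6%, 16.4% and 3.31% hold them, and of all genes with a window, 39.7%, 19.5% and 3.99% hold them in at least 1 window. Other forms of these sites were not searched, so a gene without a mark is not shown to lack the site. *CDK1* had 2 windows and *CDC25B* 4. *CCNB1* had CCAAT at -87 to -83 and at -55 to -51 from its start. *CCNB2* had 3 CCAAT boxes within the stretch above and a further one at -244 to -240, with TTTGAA at -29 to -24. *CDC25A* was the gene with an E2F site between its CCAAT boxes and its start, at -44 to -37. At a second listed start of *CDK1*, further into the gene, TTTGAA stood at -69 to -64 and at -13 to -8. *CCNE1* had none of the letters searched, which says nothing of the factors beyond these letters in this window.

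*CDK1* and *CDK2* encode the kinases themselves, whose activity is set mainly by cyclin binding and phosphorylation. *CDK1* (ENSG00000170312, GRCh38 chromosome 10, 60778331 to 60794852, plus strand) stood at 124, 149 and 157 CPM in siCtrl and 126 and 154 CPM in siFAM53C, so that both siFAM53C values fell inside the control range. Its difference was -0.03 (SE 0.14, 95% interval -0.36 to 0.30, adjusted p = 0.948, edgeR's quasi-likelihood test, Benjamini-Hochberg adjusted), and its sign turned to 0.04 when library totals replaced the TMM factors.

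*CDK2* (ENSG00000123374, GRCh38 chromosome 12, 55966781 to 55972789, plus strand) differed from the other 8 genes in direction. It had 1750, 1432 and 1490 counts in siCtrl and 2315 and 2296 in siFAM53C. In CPM these were 74.3, 74.9 and 78.1 against 87.5 and 97.4, so both siFAM53C libraries stood above all controls. The fitted fold was 1.22 (95% interval 1.04 to 1.44), a log2 difference of 0.29 (SE 0.10, adjusted p = 0.211, edgeR's quasi-likelihood test, Benjamini-Hochberg adjusted). Adjusted for side it was 0.27 (adjusted p = 0.037, same test), and within the sides it was 0.23 (A) and 0.32 (B). Opposite-strand genes overlap 654 of its exon bases (16.8%), among them *PMEL*, which did not exceed 1.23 CPM.

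The CDC25 phosphatases activate the cyclin-bound kinases, CDC25A from G1/S onwards and CDC25B at the entry into mitosis. *CDC25A* (ENSG00000164045, GRCh38 chromosome 3, 48157146 to 48188417, minus strand) stood at 70.5, 68.4 and 62.7 CPM in siCtrl and 65.3 and 67.4 CPM in siFAM53C. Both siFAM53C values were inside the control range, and the difference was -0.02 (SE 0.11, 95% interval -0.27 to 0.23, adjusted p = 0.955, edgeR's quasi-likelihood test, Benjamini-Hochberg adjusted). *CDC25B* (ENSG00000101224, GRCh38 chromosome 20, 3786772 to 3806121, plus strand) stood at 200, 186 and 263 CPM in siCtrl and 163 and 246 CPM in siFAM53C. Here the libraries differed more within a condition than between conditions, and the difference of -0.08 had an SE of 0.21 (adjusted p = 0.902, same test). Adjusted for side it was -0.18 (adjusted p = 0.155, same test).

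**Figure D2:**
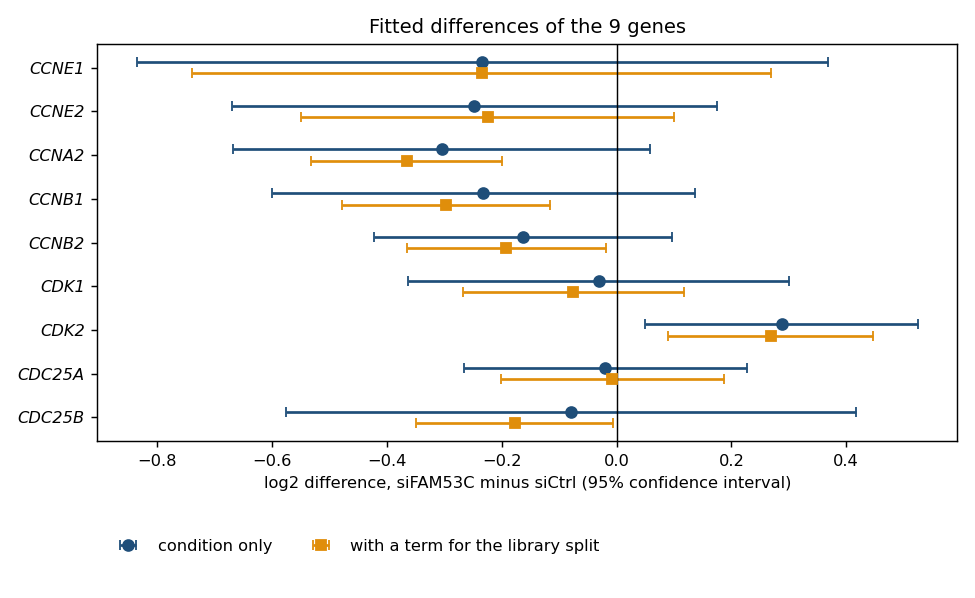
Fitted log2 difference (siFAM53C minus siCtrl) of each gene with its 95% confidence interval, from the fit with the condition only (blue circles) and from the fit adjusted for the library side (orange squares). Adjusted for side, the intervals of CCNA2, CCNB1, CCNB2 and CDC25B lie below 0 and that of CDK2 above 0, and after adjustment CCNA2, CCNB1 and CDK2 pass 0.05.

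With adjustment for side, 2 of the 9 genes were called lower (*CCNA2* and *CCNB1*) and 1 higher (*CDK2*), in a fit that called 10.7% of all genes lower and 6.76% higher. The side came from the same counts, so these calls are weaker than their adjusted p-values state. A fit with the column-name numbers as blocks in place of the sides called 1 of the 9 lower (*CCNA2*) and 0 higher. Of all 15341 genes it called 1350 lower and 642 higher. Within both sides, 7 of the 9 differences were below 0 and 1 was above 0. Side B compares siFAM53C replicate 2 with siCtrl replicate 3 alone, and the share of all genes below 0 within both sides was not counted. For several of the 9 genes the step between the sides was at least as large as the fitted difference between conditions. In siCtrl, *CDC25B* was 0.45 higher on side B than on side A on the log2 scale, *CCNA2* 0.30, *CCNB1* 0.26 and *CDK1* 0.21, and in siFAM53C the same steps were 0.59, 0.38, 0.43 and 0.29. The steps of *CCNE1* were 0.05 in siCtrl and 0.01 in siFAM53C, those of *CCNE2* -0.04 and -0.43, and those of *CDC25A* -0.15 and 0.04. In both conditions 7 of the 9 genes were higher on side B, which held for 35% of all genes tested.

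Of the 4 markers of cycling cells, *MKI67* and *TOP2A* were higher on side B in both conditions (by 0.62 and 0.73 on the log2 scale in siCtrl and 0.30 and 0.68 in siFAM53C), *PCNA* was lower (-0.41 and -0.18), and *BIRC5* was lower in siCtrl and higher in siFAM53C (-0.11 and 0.13). *MKI67* stood at 1020 CPM in siCtrl replicate 3 and 840 CPM in siFAM53C replicate 2, and at 657, 675 and 682 CPM in the 3 libraries of side A, while *CDKN1A*, which encodes the CDK inhibitor p21, was 0.91 lower on side B on the log2 scale in both conditions. Fewer cycling cells and less RNA per cell cannot be told apart in bulk RNA, and the part of the side in the differences was not tested.

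**Figure D3:**
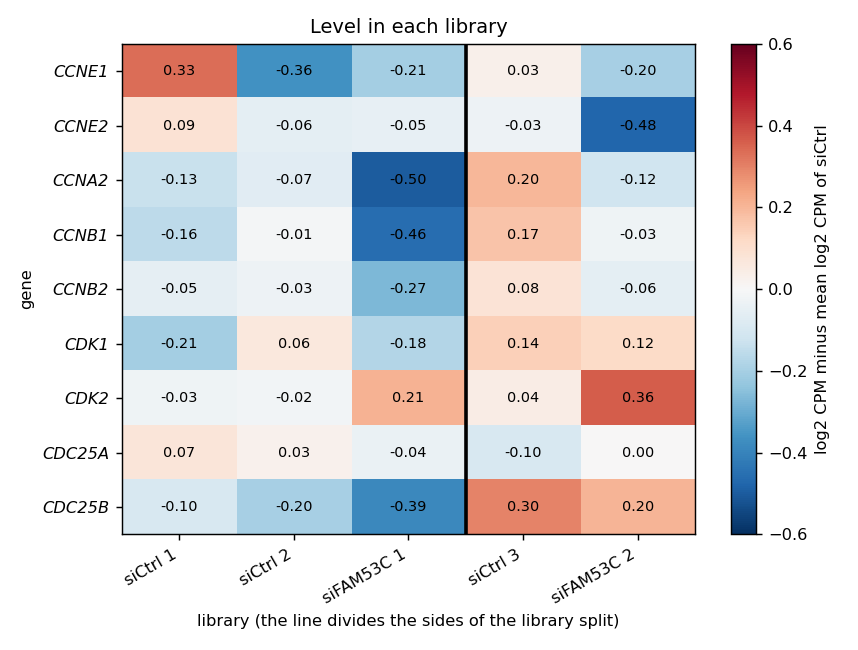
Log2 CPM of each gene in each library minus its mean over the siCtrl libraries, with libraries ordered by side (A left of the line, B right of it). CCNA2, CCNB1 and CDC25B are lowest in siFAM53C replicate 1 and highest in siCtrl replicate 3, and CDK2 is above 0 in both siFAM53C libraries.

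Summed by role, the A and B cyclins amounted to 466, 492 and 569 CPM in siCtrl and 374 and 480 CPM in siFAM53C. The E cyclins summed to 27.9, 22.2 and 24.5 CPM against 23.1 and 18.9 CPM, and the kinases to 198, 224 and 235 CPM against 214 and 252 CPM. For the CDC25 pair the sums were 270, 254 and 326 CPM in siCtrl and 229 and 313 CPM in siFAM53C. The conditions overlapped in each of these 4 sums.

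Ratios between these genes within a library, which do not depend on library size, were compared for 7 pairs by two-sided exact permutation tests over the 5 libraries. With 3 against 2 libraries the smallest p these tests can give is 0.2, so none could pass 0.05. The log2 ratio of *CDK1* to *CDK2* was 0.73, 0.99 and 1.01 in siCtrl and 0.53 and 0.66 in siFAM53C. Both siFAM53C values were the lower ones, with a difference of -0.32 (exact permutation p = 0.2, adjusted p = 0.7), and of -0.34 and -0.35 within the sides. The log2 ratio of *CCNA2* to *CDK1* behaved alike, at 0.94, 0.74 and 0.93 in siCtrl and 0.55 and 0.64 in siFAM53C, a difference of -0.28 (exact permutation p = 0.2, adjusted p = 0.7) and of -0.30 and -0.29 within the sides. For both ratios the conditions did not overlap. The other 5 ratios overlapped, with exact permutation p from 0.4 to 0.8. Among them, *CCNA2* to *CCNB1* varied least, with a mean of 0.87 over the siCtrl libraries (SD 0.05) and 0.80 over the siFAM53C libraries (SD 0.03).

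**Figure D4:**
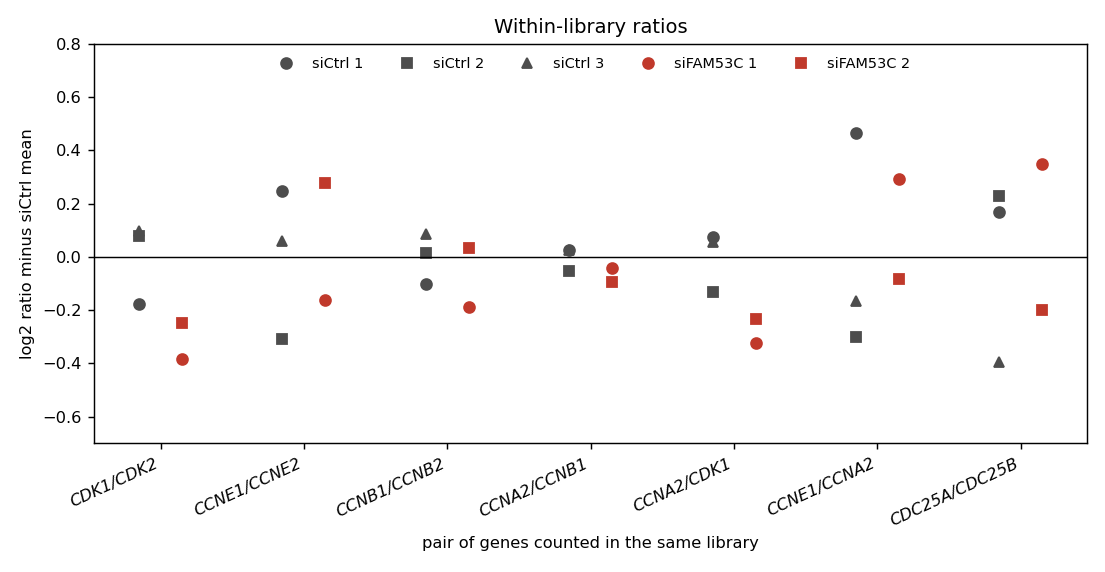
Log2 ratio of each of 7 gene pairs within each library, after subtraction of the mean over the siCtrl libraries. Grey symbols are siCtrl and red symbols siFAM53C; the conditions are apart for CDK1/CDK2 and CCNA2/CDK1 and overlap for the others.

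Likeness of pattern was measured as the root mean square difference of centred log2 CPM over the 5 libraries, with no test. *CCNA2* and *CCNB1* were the closest pair of the 9, at 0.0467, and each was among the 19 genes nearest to the other of all tested. *CCNB2* (0.0998) and *CDC25B* (0.137) were nearest to *CCNB1*, and *CDK1* (0.109) and *CDC25A* (0.136) to *CCNB2*. Among the 9, *CCNE1* and *CCNE2* lay farthest from their nearest member, at 0.226 (*CCNE2* for *CCNE1*) and 0.198 (*CDC25A* for *CCNE2*). *CDK2* stood at 0.172 from *CDC25A*. By rank of nearness among all tested genes, the nearest member was number 1177 for *CCNE1*, 2837 for *CCNE2*, 2768 for *CDK2* and 3089 for *CDC25A*. A distant nearest member was thus not particular to the E cyclins. Of all tested genes with a mean of at least 10 CPM, *HSP90AA2P* (0.0239), *DNAJC10* (0.0283) and *MTND2P28* (0.0336) were nearest to *CCNB1*, of which *HSP90AA2P* and *MTND2P28* are pseudogenes whose counts are uncertain, since reads can be split among near-identical copies. *ZBTB17* (0.0552), *PCYOX1L* (0.0665) and *COL27A1* (0.0976) were nearest to *CCNE1*.

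Genes that make, modify and destroy these proteins were examined as 7 lists with 62 genes, of which 58 were tested. Of these, 5 passed lower and 1 higher, beside 3.47% and 0.489% of all genes tested. The lists were chosen with earlier results of these data known, so counts of calls in any of them do not stand apart from that choice. The destruction machinery, the ubiquitin ligases and their helpers that end each cyclin's life, had 3 of 13 genes called lower and 0 higher. *SKP2*, the F-box protein that recruits the CDK inhibitor p27 and free cyclin E to a ubiquitin ligase, fell from 62.7 ± 5.00 CPM (SD, n = 3) to 20.6 ± 2.55 CPM (SD, n = 2), a log2 difference of -1.60 (SE 0.14, adjusted p = 0.001138, edgeR's quasi-likelihood test, Benjamini-Hochberg adjusted). The largest fall in these lists was that of *SKP2*, and its call held in every alternative fit that was run. *BTRC*, an F-box protein that targets CDC25A and WEE1, fell from 38.5 ± 2.17 to 24.3 ± 2.45 CPM (-0.67, SE 0.13, adjusted p = 0.03433, same test). *CDC27*, a subunit of the anaphase-promoting complex that destroys the A and B cyclins, fell from 181 ± 14.0 to 126 ± 0.895 CPM (-0.53, SE 0.11, adjusted p = 0.04036, same test). The most abundant genes of the list were *UBE2S* (330 ± 29.4 against 198 ± 45.6 CPM, adjusted p = 0.05228, same test) and *CDC20* (236 ± 8.81 against 232 ± 27.3 CPM), which work with the same complex and did not pass. Adjusted for side, *UBE2S* passed as lower (-0.80, adjusted p = 1.282e-05, same test).

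Among 22 transcription regulators of the 9 genes, 2 were called lower and 1 higher, and the median difference was -0.14. *E2F7*, which encodes a repressor of E2F target genes, fell from 103 ± 8.35 CPM (SD, n = 3) to 42.4 ± 7.18 CPM (SD, n = 2), a log2 difference of -1.28 (SE 0.14, adjusted p = 0.003174, edgeR's quasi-likelihood test, Benjamini-Hochberg adjusted). *LIN54*, the MuvB subunit that binds the CHR, fell from 34.6 ± 2.19 to 19.4 ± 1.87 CPM (-0.84, SE 0.14, adjusted p = 0.01746, same test). *E2F2*, an activator of the G1/S genes, rose from 18.9 ± 0.310 to 33.6 ± 1.02 CPM (0.83, SE 0.13, adjusted p = 0.01259, same test). The most abundant members of the list, *FOXM1* (349 ± 32.4 against 337 ± 38.9 CPM) and *TFDP1* (342 ± 33.5 against 303 ± 18.8 CPM), did not pass. *BTRC*, *CDC27*, *E2F2* and *LIN54* kept their direction but lost the call when siCtrl replicate 1 or 2 or either siFAM53C library was left out, with adjusted p up to 0.2767 (*BTRC*, without siFAM53C replicate 2, same test). *BTRC* and *CDC27* also lost it with library totals (adjusted p = 0.05958 and 0.07509, same test).

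The other 5 lists had 0 genes called in either direction by this test. Of the CIP/KIP inhibitors, which bind and block the cyclin-kinase pairs, 2 of 3 were tested. *CDKN1B*, which encodes p27, stood at 122, 112 and 100.4 CPM in siCtrl and 144 and 161 CPM in siFAM53C (0.45, SE 0.12, adjusted p = 0.09119, edgeR's quasi-likelihood test, Benjamini-Hochberg adjusted), with no overlap. *CDKN1A* stood at 354, 331 and 182 CPM in siCtrl and 452 and 240 CPM in siFAM53C, a spread within conditions that left its difference at 0.26 (SE 0.39). With adjustment for side both passed as higher (adjusted p = 0.002571 for *CDKN1B* and 0.001623 for *CDKN1A*, same test). That fit called 6.76% of all genes higher, and its side term was read from the same counts.

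Of the kinases that inhibit CDK1 and CDK2 and the checkpoint kinases behind them, 4 of 5 were tested, with a median of 0.10. *WEE1* stood at 83.1 ± 16.4 against 86.5 ± 9.29 CPM. *PKMYT1*, the membrane-bound kinase that inhibits CDK1, stood at 77.3, 62.8 and 54.8 CPM in siCtrl and 92.5 and 113 CPM in siFAM53C, with no overlap (0.66, SE 0.16, adjusted p = 0.07755, edgeR's quasi-likelihood test, Benjamini-Hochberg adjusted). It passed with adjustment for side (adjusted p = 0.03054, same test), in a fit that called 6.76% of all genes higher.

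The mitotic entry list, of kinases and phosphatase regulators that switch CDK1 on and keep its substrates phosphorylated, had all 6 differences below 0 and a median of -0.29. Of all 15341 genes tested, 7391 lay below 0. The most abundant members of the list were *ARPP19* (349 ± 17.7 against 279 ± 15.8 CPM) and *PLK1* (255 ± 13.3 against 213 ± 36.5 CPM). With adjustment for side 4 of the 6 were called lower, in a fit that called 10.7% of all genes lower. Among them were *ARPP19* (adjusted p = 0.01271) and *PLK1* (adjusted p = 0.01653, edgeR's quasi-likelihood test, Benjamini-Hochberg adjusted). Partner subunits and paralogs had a median of -0.03 over 7 of 9 genes tested, with the CDK-binding subunits *CKS1B* at 65.6, 81.0 and 69.3 against 58.8 and 66.9 CPM and *CKS2* at 61.0 ± 7.92 against 56.1 ± 11.1 CPM. The 4 markers of cycling cells had a median difference of -0.19, and the most abundant were *MKI67* (784 ± 204 against 761 ± 112 CPM) and *TOP2A* (638 ± 199 against 502 ± 164 CPM). The lowest difference among them was that of *BIRC5*, named after its values were seen, at -0.47 (SE 0.12, adjusted p = 0.07944, same test), with no overlap between conditions. With adjustment for side *TOP2A* (adjusted p = 0.0005032) and *BIRC5* (adjusted p = 0.002144, same test) passed as lower.

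**Figure D5:**
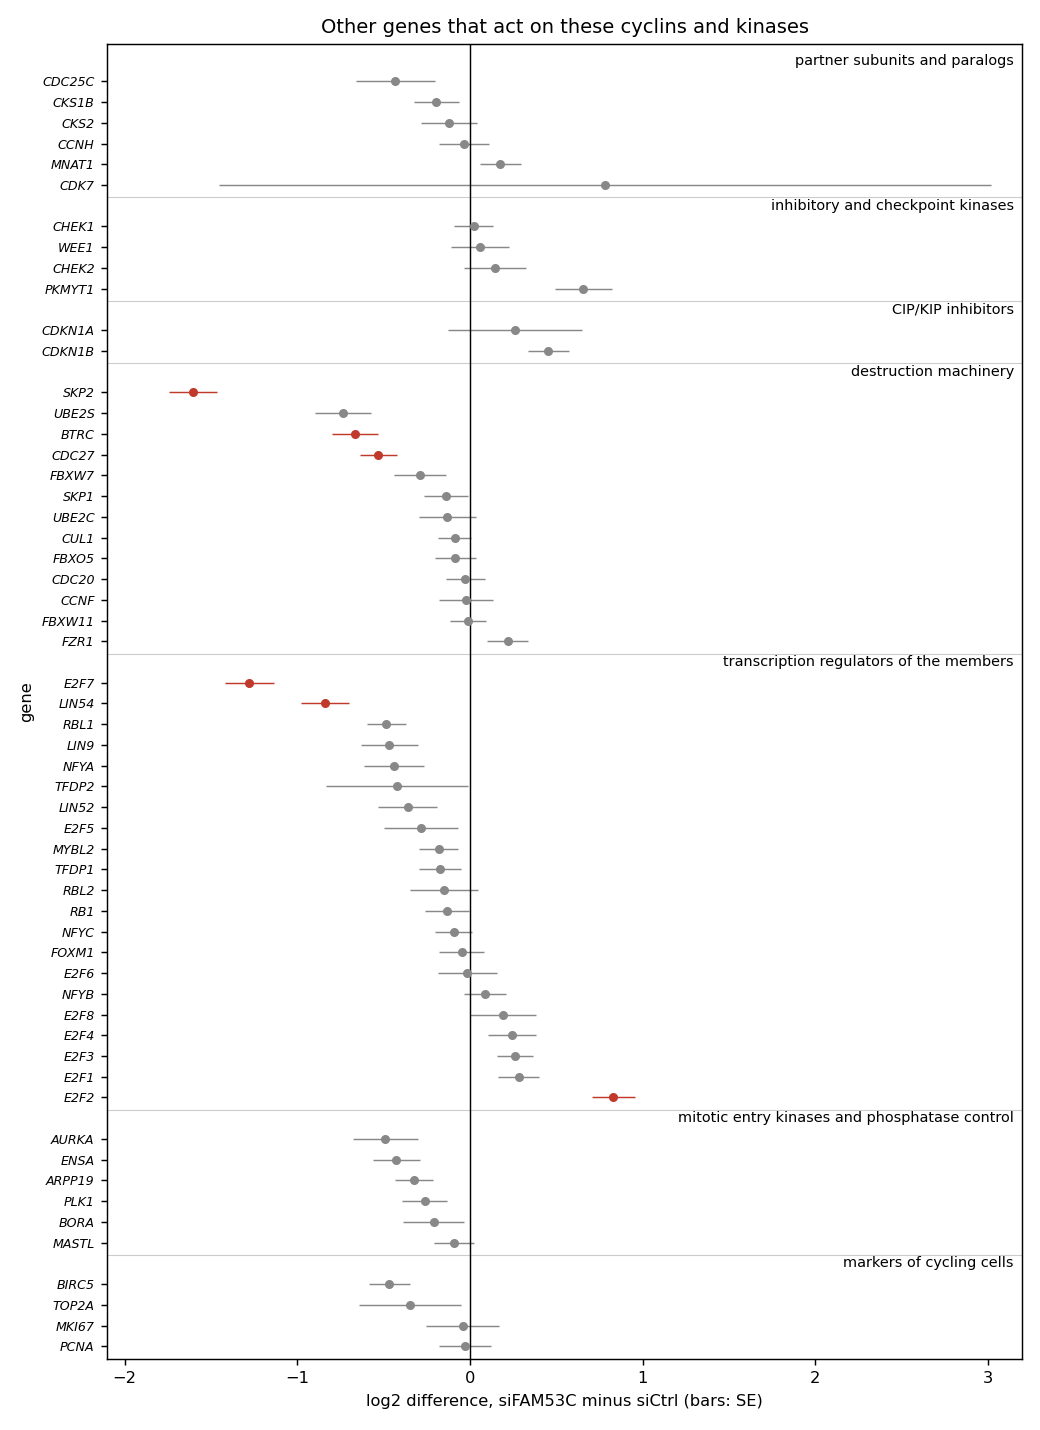
Log2 difference (siFAM53C minus siCtrl) with its SE for 56 of the 58 tested genes of the 7 lists, those with a mean of at least 1 CPM, ordered by value within each list. Red marks the 6 genes past an adjusted p of 0.05 (SKP2, BTRC, CDC27, E2F7 and LIN54 lower, E2F2 higher), and the wide bar is CDK7, whose counts differ strongly between replicates.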

How the data were processed

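The authors removed adapters with cutadapt 2.10, mapped the paired reads on hg38 by HISAT2 as reverse-stranded and assigned them to genes by featureCounts, and deposited raw counts per gene for 5 libraries without normalization. The strand setting used in the counting and the annotation release are not given in the sources used here. Libraries held 19260124 to 25615415 counts, and their number limits the precision. The methods give duplicates per condition, whereas 3 siCtrl libraries were deposited and all were used. Conditions and replicate numbers came from the sample titles. Gene names and positions were taken from GENCODE release 44, which matched 56105 of 64252 identifiers, and promoters from RefSeq on GRCh38.p14.

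From these counts, genes were filtered with filterByExpr (minimum count 10, minimum total 15), scaled by TMM and compared in R 4.3.3 with edgeR 4.0.16 (robust quasi-likelihood test, condition only, Benjamini-Hochberg over 15341 genes, threshold 0.05). A prior count of 2 entered log2 CPM, and ratios used counts plus 0.5 with exact permutation tests. DESeq2 1.42.0, limma-voom (limma 3.58.1), other scalings and filters, replicate blocks, a term for the library side and each library left out were the alternatives. The edgeR, DESeq2 and limma fits were tested on simulated data.

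The 9 genes and the lists were chosen with earlier results of these data known. Named genes were the 9 and FAM53C, each called list gene, the 2 most abundant genes of each list, and the nearest genes by pattern.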

Additional observations from a re-analysis of the deposited data

How the results depend on the processing

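The count of 0 called genes among the 9 held under DESeq2, limma-voom, other scalings and filters and in each fit without 1 library, and changed to 1 lower with a replicate block by column names and to 2 lower and 1 higher when the library side was adjusted for. Deviations of same-numbered libraries correlated at 0.169 and -0.285 by the numbers in titles and at 0.169 and 0.371 by those in column names, and no label says what a number shares, so the 2 pairs of either numbering were not taken as paired. With the block by column names *CCNA2* was at -0.34 (adjusted p = 0.01956, edgeR's quasi-likelihood test). *CCNB1* at -0.25 (adjusted p = 0.09079) and *CDK2* at 0.28 (adjusted p = 0.07843, same test) did not pass in that fit. Among the list genes, 5 lower calls became 8 with DESeq2, 3 with library totals, 11 without a filter, 8 and 13 with the replicate block by titles and by column names, 16 with the side term and 2 to 9 without 1 library. The lower calls over all genes, 533 in the reported fit, were 888, 415, 961, 856, 1350 and 1636 in the first 6 of these fits. DESeq2 and the fit without a filter covered 26587 genes, and the others of the 6 covered 15341 like the reported fit. The 1 higher call became 3 with DESeq2, without a filter and with the block by column names, 4 with the side term and 0 to 2 without 1 library. Higher calls over all genes, 75 in the reported fit, were 254, 375, 642 and 1037 in the first 4 of these. Calls over all genes ranged from 157 to 886 lower and 6 to 414 higher without 1 library, and the median of the 9 genes was -0.24 without siFAM53C replicate 2 and -0.04 without siFAM53C replicate 1. Signs turned for 3 of the 9 genes: *CDK1* was 0.039 with library totals, 0.040 with the block by titles, 0.0010 with the block by column names and -0.19 to 0.10 without 1 library, *CDC25A* was 0.052 with library totals, 0.10 within side B and -0.059 to 0.017 without 1 library, and *CDC25B* was 0.056 with the block by titles and -0.41 to 0.18 without 1 library. Of the ratios, *CCNE1* to *CCNE2* was -0.13 within side A and -0.16 to 0.28 without 1 library, *CCNA2* to *CCNB1* was -0.12 within side B, and ranges without 1 library were -0.19 to 0.033 for *CCNB1* to *CCNB2*, -0.082 to 0.34 for *CCNE1* to *CCNA2* and -0.20 to 0.35 for *CDC25A* to *CDC25B*. *FAM53C* itself was -2.08 within side A and -1.37 within side B. Their cause was not tested. With 117 to 430 counts per library, the E cyclins had the largest counting error of the 9 genes.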

Other observations

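*CDK7*, which encodes the kinase that activates CDK1 and CDK2 by phosphorylation, was counted 10, 2 and 160 times in siCtrl and 266 and 2 times in siFAM53C. Its counts thus differed more between replicates than between conditions. The heptamer GACAAGA, a sequence picked out in earlier results of these same data, was absent from the longest annotated 3' untranslated region of all 9 genes. Of the called list genes, *SKP2*, *BTRC* and *LIN54* held it and *CDC27*, *E2F2* and *E2F7* did not. The regions were 5347, 4198 and 3948 bases long in the former, 3232, 3442 and 2891 in the latter, and 535 to 2269 in the 9 genes. A longer region has more places for a heptamer, and the part of length was not tested. The heptamer was present in 1825 of 12096 tested genes with such a region (15.1%), whose median log2 difference was -0.14 beside 0.02 for genes without it. As the heptamer was picked from these data, this difference is not a separate result.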
